A study of Rattus norvegicus with 6 samples.

Results

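The genes described here are the pre-mRNA splicing genes of the rat neural retina. They were chosen by name alone: the PRP factors (Prpf), the proteins of the small nuclear ribonucleoproteins (Snrp and Snrnp), the Sf3a and Sf3b subunits, the SR proteins (Srsf), U2af, the Nova, Ptbp, Rbfox, Musashi (Msi) and Srrm families, and the retinal disease genes Rp9, Dhx38 and Cwc27. The rule found 73 genes of 19623 symbols, each with a single row, in a table of 26406 rows. By role, 44 belong to the core spliceosome, 13 are SR or SR-related proteins, 10 are neural splicing regulators, 2 are the more widely expressed polypyrimidine tract binding proteins Ptbp1 and Ptbp3, and 4 are rows named as copies of Sm genes.

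The series holds RNA sequencing of neural retina from 6 rat samples at postnatal day 60, in 3 groups of 2. The LEsham group is of the Long Evans strain, which has a healthy retina, and the RCSsham group of the Royal College of Surgeons (RCS) strain, whose photoreceptors degenerate. Both had sham surgery, with carrier medium alone, at postnatal day 21. The RCShNPCs group is of RCS rats injected under the retina with human neural progenitor cells on the same day. Each sample holds the stretch of retina with the graft, or its counterpart in a sham eye, and whether each came from an animal of its own is not stated. The labels name no line or donor for the grafted cells. The deposited table gives 1 FPKM value per gene (fragments scaled to transcript length and to all mapped fragments) and names no sample. The values below therefore compare genes with one another in retinal RNA, whether of a single library or of several pooled, and they compare no strain and no treatment. There is no replicate anywhere, and the only error is the lower and upper bound that the authors deposited beside each FPKM. The width of that interval implies how many fragments lie behind a level, if the bound is 2 standard errors away and the error is that of counting. Ratios of levels are given with a 95% interval from these implied fragments, and genes are said to differ beyond counting error where it excludes 1.

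Splicing removes introns in steps. The U1 particle marks the start of an intron, U2AF and the U2 particle mark its end, and the U4/U6.U5 tri-snRNP then joins, after which helicases rearrange the RNAs into the active enzyme. SR proteins and tissue-specific RNA-binding proteins decide which exons are kept. Mutations in several proteins of the tri-snRNP, which every cell needs, cause retinitis pigmentosa, a loss of photoreceptors. Photoreceptors are also known for exons of their own, and Musashi proteins and the microexon regulators Srrm3 and Srrm4 are known to act on such exons.

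The RNA carried the markers of retina. The 5 rod markers (Gnat1, Sag, Pde6b, Prph2 and Nrl) stood between 518 and 6316 FPKM, the 3 Müller glia markers between 58.4 and 617 FPKM, and the bipolar, amacrine, cone and ganglion cell markers between 3.12 and 87.2 FPKM. The 3 microglia markers summed to 7.12 FPKM, and the 3 blood markers to 23.5 FPKM, with Alas2 listed at 0. The 3 pigment epithelium markers summed to 24.9 FPKM, of which Rpe65 held 20.7 FPKM. The 3 endothelial markers summed to 57.9 FPKM, of which Kdr held 52.2 FPKM. The lens gene Cryaa stood at 427 FPKM, beside the lens fibre genes Mip at 1.60 FPKM and Lim2 at 1.81 FPKM. In tissue RNA, fewer cells of a type and less RNA per cell cannot be told apart, and none of the levels below is assigned to a cell type. Both genes that mark the set were present, Prpf31 at 23.2 FPKM and Msi1 at 106 FPKM.

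Promoters of 61 of the 73 genes were found by symbol in RefSeq's promoter table of build GRCr8. The 250 bases before the start were searched on both strands for 6 short motifs, chosen after the expression values had been seen. The core motif of ETS factors, CCGGAA, was in 20 of 41 core promoters (48.8%), in 5 of 12 SR promoters (41.7%) and in 0 of 7 neural ones. Only 7 of the 10 neural regulators had a promoter in the table, and the difference between roles was not tested. It was in 13.4% of all 27457 promoters and in 24.4% of the 8865 promoters of symbols at 1 FPKM or more. Among the disease factors 5 of 9 held it: Prpf31, Prpf4, Prpf6, Rp9 and Snrnp200. The 4 sequences shown here are those of 2 disease factors that hold the motif and of 2 neural regulators that do not, each 5′ to 3′ on the gene's strand, with CCGGAA or its complement in capitals.
Prpf31 (chr1:74502923-74503172, minus strand): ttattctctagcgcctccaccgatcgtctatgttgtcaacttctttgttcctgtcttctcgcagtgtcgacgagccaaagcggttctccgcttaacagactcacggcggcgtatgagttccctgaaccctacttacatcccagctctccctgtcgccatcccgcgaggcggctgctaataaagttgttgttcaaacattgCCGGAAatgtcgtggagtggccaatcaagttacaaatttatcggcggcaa
Snrnp200 (chr3:134881923-134882172, plus strand): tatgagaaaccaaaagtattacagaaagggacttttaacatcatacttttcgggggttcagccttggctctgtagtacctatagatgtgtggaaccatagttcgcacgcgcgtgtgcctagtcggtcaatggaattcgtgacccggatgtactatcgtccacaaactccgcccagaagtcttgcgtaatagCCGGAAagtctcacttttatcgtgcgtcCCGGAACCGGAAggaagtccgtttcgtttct
Srrm4 (chr12:45659479-45659728, plus strand): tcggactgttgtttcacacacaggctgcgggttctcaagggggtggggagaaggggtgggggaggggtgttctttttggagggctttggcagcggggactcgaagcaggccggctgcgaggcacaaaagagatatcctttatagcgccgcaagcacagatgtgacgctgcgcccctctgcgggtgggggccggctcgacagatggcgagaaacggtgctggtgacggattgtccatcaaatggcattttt
Nova1 (chr6:69632438-69632687, minus strand): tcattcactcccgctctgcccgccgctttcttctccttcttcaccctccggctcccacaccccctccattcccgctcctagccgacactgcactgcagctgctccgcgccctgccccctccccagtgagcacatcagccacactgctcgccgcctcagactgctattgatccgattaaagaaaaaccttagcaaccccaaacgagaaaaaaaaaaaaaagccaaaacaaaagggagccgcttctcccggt

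Prpf31 had 1 match and Snrnp200 had 3. A match is a description of letters and not a bound site, and the absence of a match says only that these letters are not in the window. For the other motifs, the share of the splicing genes' promoters is set beside that of symbols at 1 FPKM or more and then that of all promoters. CCAAT was in 39.3%, beside 35.2% and 34.3%. TATAAA was in 8.20%, above the 6.03% of expressed symbols and below the 13.1% of all promoters. TAATCC, the core of sites for the photoreceptor factor CRX, was in 6.56%, beside 4.82% and 6.33%. GGGCGG was in 50.8%, below the 60% of expressed symbols and above the 32.4% of all promoters, in 10 of 12 SR, 17 of 41 core and 4 of 7 neural genes. TGACGT, the core of cyclic AMP response sites, was in 14 of 61 (23.0%), beside 10.9% and 7.25%, in 5 of 12 SR, 8 of 41 core and 1 of 7 neural genes. Base composition differed as well: the median GC content was 55.6% for core, 59.6% for neural and 68.8% for SR promoters, and its part in these matches was not tested.

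Nearly every splicing gene was expressed. Of the 73, 72 reached 1 FPKM, against 61% of all symbols, and the exception was Snrpep2, a copy of an Sm gene, listed at 0. At 10 FPKM or more there were 55 (75.3%), against 28.9% of all symbols, and at 100 FPKM or more there were 5 (6.85%), against 1.79%. The median was 19.6 FPKM, beside 3.17 FPKM over all symbols and 9.21 FPKM over symbols at 1 FPKM or more. Of all FPKM in the table, 0.742% lay in the 73 genes, and 6 of them (Snrpd3, Snrnp70, Srsf5, Msi1, Srsf2 and Srrm2) held 36.1% of that.

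The roles stood at different levels. SR and SR-related genes had a median of 44.1 FPKM, core genes 17.9 FPKM and neural regulators 9.09 FPKM. All 44 core, 13 SR and 10 neural genes reached 1 FPKM. At 10 FPKM or more there were 35 core genes (79.5%), 12 SR genes (92.3%) and 4 neural genes (40%). The neural share was the nearest of these to the 28.9% of all symbols, and the neural median lay close to that of expressed symbols in general. These are descriptions of genes picked by name and carry no test.

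**Figure D1:**
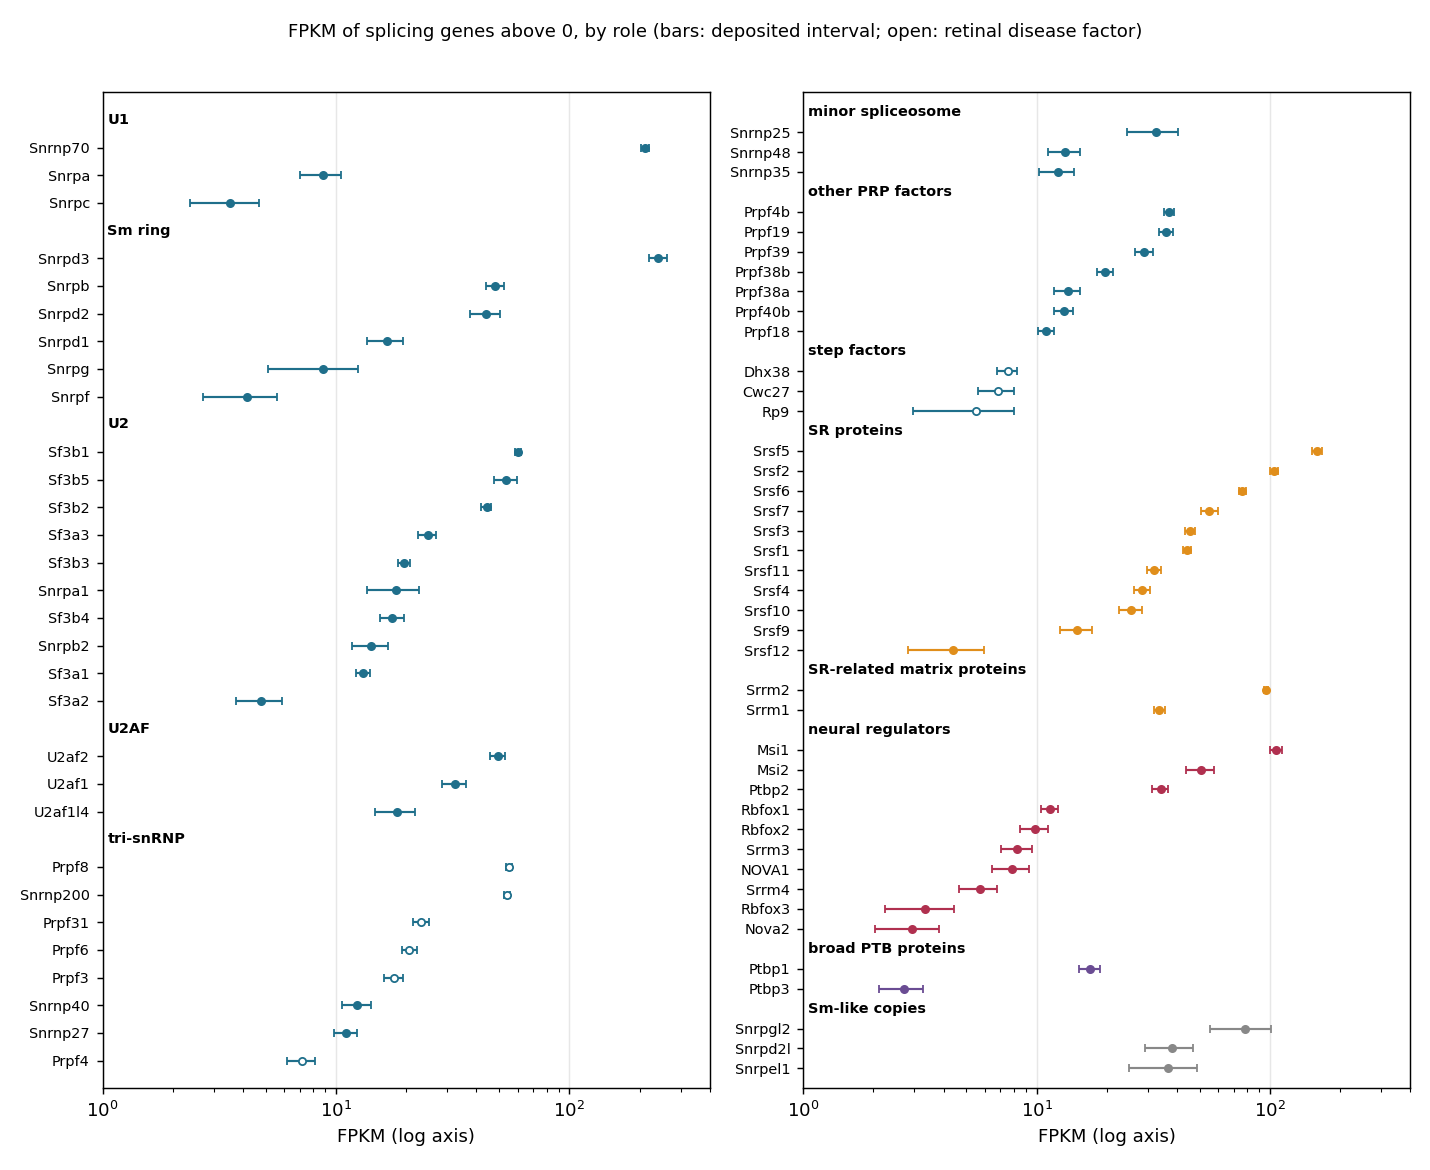
FPKM (log axis) of the splicing genes above 0 that are reported by name, grouped by role; points are deposited values, bars the deposited interval, and open points mark retinal disease factors. Snrpep2, listed at 0, is left off; Snrpd3 at 241 FPKM and Snrnp70 at 211 FPKM stand furthest right, and Msi1 at 106 FPKM stands apart from the other neural regulators.

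**Figure D2:**
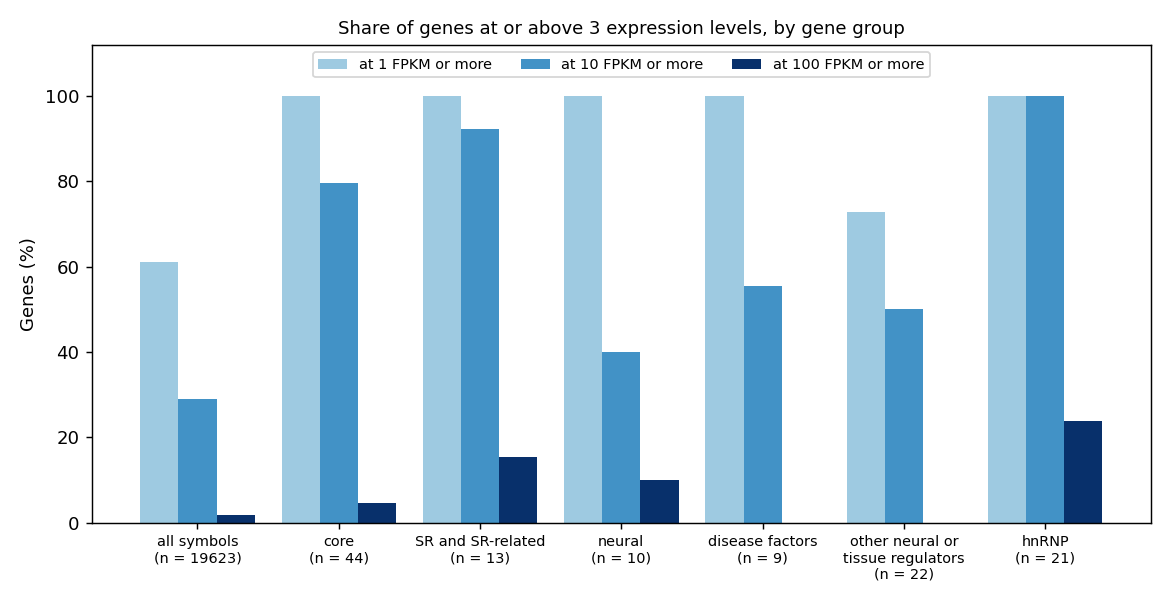
Share of genes (%) at or above 1, 10 and 100 FPKM in all symbols and in 6 gene groups, with the number of genes under each group. Core, SR, neural, disease factor and hnRNP genes all reach 100% at 1 FPKM, while at 10 FPKM the neural regulators fall to 40% and the core genes to 79.5%.

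The 9 retinal disease factors spanned a 10.03-fold range, from 5.48 to 55.0 FPKM, with a median of 17.7 FPKM beside 18.1 FPKM for the other 35 core genes. Prpf8, the central scaffold of the spliceosome, and Snrnp200, the helicase that unwinds U4 from U6 RNA, were the highest. Prpf8 stood at 55.0 FPKM (deposited interval 53.4 to 56.6) and Snrnp200 at 54.2 FPKM (52.6 to 55.8). These 2 partners in the U5 particle did not differ beyond counting error per length, with a ratio of 1.01 (95% counting interval 0.974 to 1.06). By fragments, which are not scaled to length, the ratio was 1.09 (1.04 to 1.13), which excludes 1.

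The next step down held 3 tri-snRNP proteins. Prpf31, which holds the U4 RNA within the tri-snRNP, was at 23.2 FPKM (21.4 to 25.1), on an implied 630 fragments. Prpf6, which bridges U5 and U4/U6, was at 20.7 FPKM (19.1 to 22.2), and Prpf3, a U4/U6 protein, at 17.7 FPKM (16.1 to 19.4). Snrnp200 was 2.33 times Prpf31 (2.15 to 2.54). Prpf31, Prpf6 and Prpf3 lay close together, and each differed from its neighbour by slightly more than counting error, at 1.13-fold (1.01 to 1.25) and 1.17-fold (1.04 to 1.31). The order of Prpf31 and Prpf6 rests on the scaling to length: by fragments Prpf31 was at 0.875 of Prpf6 (0.786 to 0.973).

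Per length, the lowest 4 disease factors were within counting error of one another's neighbouring level. Dhx38, the helicase PRP16 that acts before the second catalytic step, was at 7.51 FPKM (6.75 to 8.28). Prpf4, which binds U4/U6 together with Prpf3, was at 7.13 FPKM (6.14 to 8.11), and Cwc27, a cyclophilin-like protein of the activated spliceosome, at 6.80 FPKM (5.63 to 7.97). Rp9, the gene of the PIM1-associated protein PAP-1, stood at 5.48 FPKM (2.97 to 7.9997) on 19 implied fragments, the widest interval relative to its level of any splicing gene above 0. Prpf3 was 2.36 times Dhx38 per length (2.06 to 2.70), a gap that parts the upper 5 from the lower 4. Their implied fragments lay closer, at 464 and 389, beside 210 for Prpf4 and 135 for Cwc27, so this parting rests on the scaling to length. Although Prpf3 and Prpf4 act as a pair, Prpf3 was 2.49 times Prpf4 (2.11 to 2.93).

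The Prpf31 row (ENSRNOG00000013504) lies on chromosome 1 from 63143068 to 63154743 (rn5), and the Prpf8 row (ENSRNOG00000003495) on chromosome 10 from 64348558 to 64371667. Each is a value over a whole gene. The remaining tri-snRNP members without a disease role on the list were Snrnp40, a U5 protein, at 12.4 FPKM (10.6 to 14.1) and Snrnp27 at 11.1 FPKM (9.85 to 12.3). All 8 tri-snRNP genes reached 1 FPKM, against 61% of all symbols, and 7 (87.5%) reached 10 FPKM, against 28.9%.

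Among the neural regulators, the Musashi genes had the highest FPKM. Msi1, an RNA-binding protein of neural progenitors and photoreceptors, was at 106 FPKM (99.7 to 113), and Msi2 at 50.4 FPKM (43.6 to 57.3). They made up 65.3% of the FPKM summed over the 10 neural genes and 39.8% of their implied fragments, a share added after the data were seen. By fragments Msi2, with 216, stood below Ptbp2 with 620 and Rbfox1 with 553. The unrounded number for Msi2 was 215.55, and whether isoforms or shared reads lowered it was not tested. Msi1 was 2.11 times Msi2 per length (1.82 to 2.44) and 4.79 times by fragments. Msi1 ranked 326 among the 19623 symbols. Without these 2 genes the neural median was 8.08 FPKM. The Msi1 row (ENSRNOG00000001156; chromosome 12, 48696700 to 48717413 in rn5) overlaps an unnamed row at 1.58 FPKM with 5 implied fragments.

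Ptbp2, the neuronal polypyrimidine tract binding protein, followed at 34.0 FPKM (31.3 to 36.7). Its paralog Ptbp1, which is known to be replaced by Ptbp2 as neurons mature, was at 16.9 FPKM (15.2 to 18.7), so Ptbp2 was 2.01 times Ptbp1 (1.77 to 2.28). The third paralog, Ptbp3, was the lowest of all splicing genes above 0, at 2.69 FPKM (2.12 to 3.27), and Ptbp1 was 6.29 times Ptbp3 (4.99 to 7.94). The Ptbp3 locus overlaps an unnamed row of 1354 bases at 23.3 FPKM (20.4 to 26.2). The table gives no strand, so reads of the rows cannot be told apart and the Ptbp3 level is uncertain.

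The Rbfox genes encode regulators that bind GCAUG in introns beside neuronal exons. Rbfox1 was at 11.4 FPKM (10.4 to 12.3) and Rbfox2 at 9.89 FPKM (8.52 to 11.2), which did not differ beyond counting error per length (ratio 1.15, 0.982 to 1.35). By fragments Rbfox1 was 2.62 times Rbfox2 (2.24 to 3.07), which excludes 1. Rbfox3, the antigen known as NeuN that labels many mature neurons, was lower, at 3.33 FPKM (2.25 to 4.41) on 38 implied fragments. Rbfox2 was 2.97 times Rbfox3 (2.10 to 4.19) per length and 5.55 times by fragments (3.93 to 7.84).

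The microexon regulators and the Nova genes were at lower levels. Srrm3 was at 8.29 FPKM (7.04 to 9.53) and Srrm4, also called nSR100, at 5.71 FPKM (4.64 to 6.79), a ratio of 1.45 (1.15 to 1.84). NOVA1 was at 7.87 FPKM (6.47 to 9.26) and Nova2 at 2.93 FPKM (2.03 to 3.82), so NOVA1 was 2.69 times Nova2 (1.90 to 3.79). Both genes encode neuronal proteins that bind YCAY clusters. In the order of the 10 levels per length, Msi1 differed from Msi2, Msi2 from Ptbp2 and Ptbp2 from Rbfox1 by more than counting error, as did NOVA1 from Srrm4 and Srrm4 from Rbfox3. The neighbours Rbfox1 and Rbfox2, Rbfox2 and Srrm3, Srrm3 and NOVA1, and Rbfox3 and Nova2 did not differ beyond counting error.

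Srrm3 and Srrm4 can be set beside Srrm1 and Srrm2, the broadly expressed members of the same named family. Srrm2, a scaffold of nuclear speckles, was at 96.4 FPKM (94.4 to 98.4) on 9408 implied fragments, the most of any splicing gene. Srrm1, a splicing coactivator, was at 33.6 FPKM (31.8 to 35.4), and Srrm2 was 2.87 times Srrm1 per length (2.72 to 3.04) and 6.65 times by fragments (6.29 to 7.04). The Srrm2 locus overlaps an unnamed row of 79 bases with 1 implied fragment.

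SR proteins bind exonic enhancers through their RNA recognition motifs and recruit the splicing machinery through arginine and serine rich tails. Their 11 genes ranged from 4.38 to 159 FPKM, a 36.3-fold range, and 10 (90.9%) reached 10 FPKM, against 28.9% of all symbols. Srsf5 was the highest at 159 FPKM (151 to 167), ahead of Srsf2 at 104 FPKM (99.8 to 109), Srsf6 at 76.1 FPKM (73.4 to 78.9) and Srsf7 at 55.0 FPKM (50.5 to 59.6). Srsf3 at 45.4 FPKM (43.1 to 47.8) and Srsf1 at 44.1 FPKM (42.4 to 45.8) did not differ beyond counting error per length. Their implied fragments were further apart, at 1491 and 2651. The order of the SR genes also depends on the scaling to length. By implied fragments Srsf6 with 3102 was the highest, and Srsf1 stood above Srsf2 with 2180 and Srsf5 with 1670. Srsf11 was at 31.9 FPKM (29.9 to 34.0), Srsf4 at 28.4 FPKM (26.2 to 30.5) and Srsf10 at 25.4 FPKM (22.5 to 28.3). The lowest were Srsf9 at 14.9 FPKM (12.6 to 17.2) and Srsf12, a splicing repressor, at 4.38 FPKM (2.82 to 5.94). Srsf5 was 5.60 times its close relative Srsf4 per length (5.13 to 6.12) and 2.39 times by fragments (2.18 to 2.61).

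The 3 proteins of the U1 particle were uneven. Snrnp70, the U1 70K protein, was at 211 FPKM (202 to 219), Snrpa at 8.79 FPKM (7.05 to 10.5) and Snrpc at 3.52 FPKM (2.38 to 4.66). Snrnp70 was 24.0 times Snrpa per length (19.7 to 29.2) and 22.6 times by fragments (18.5 to 27.5), a similar gap by both measures. Snrpa was 2.50 times Snrpc (1.72 to 3.62).

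The Sm proteins form a ring around each spliceosomal RNA, with equal numbers of each in the ring. The 6 Sm genes with a symbol in the table spanned a 58.2-fold range of FPKM, which is a level of RNA and not of protein. Their implied fragments ran from 23 for Snrpg to 533 for Snrpd3. Snrpd3 was at 241 FPKM (220.05 to 262), the highest splicing gene, at rank 100 among all symbols. Snrpb followed at 48.1 FPKM (43.9 to 52.3) and Snrpd2 at 44.1 FPKM (37.5 to 50.6). Per length this pair did not differ beyond counting error (1.09, 0.922 to 1.29), though Snrpb had 517 implied fragments and Snrpd2 182. Snrpd1 was at 16.5 FPKM (13.6 to 19.4), Snrpg at 8.77 FPKM (5.13 to 12.4) and Snrpf at 4.14 FPKM (2.70 to 5.58). Snrpd3 was 5.01 times Snrpb per length (4.44 to 5.65), but 533 and 517 implied fragments lay behind them, a ratio of 1.03 (0.914 to 1.16). The lead of Snrpd3 over Snrpb is thus present in FPKM and not in fragments. Snrpe and Snrpn were not matched by symbol and are not analysed here. Snurf, which shares a transcript with Snrpn, has 2 rows: 1 of 22366 bases on chromosome 1 at 60.3 FPKM (56.1 to 64.5) and 1 of 216 bases on chromosome 17 at 337 FPKM (284 to 391).

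The 4 rows named as copies of Sm genes have the shortest spans of all the splicing genes. Snrpgl2 (231 bases) was at 78.2 FPKM (55.2 to 101), Snrpd2l (357 bases) at 38.0 FPKM (29.1 to 46.9), Snrpel1 (279 bases) at 36.7 FPKM (24.8 to 48.6) and Snrpep2 (279 bases) was listed at 0. These levels rest on 46, 73 and 38 implied fragments. Snrpgl2 was 8.91 times Snrpg (5.41 to 14.7) per length and 1.99 times by fragments (1.21 to 3.28). RefSeq lists Snrpd2l and Snrpel1 as pseudogenes. How the authors' counting divided reads between a gene and a near-identical copy is not given in the sources used here, so the levels of the copies and of Snrpg, Snrpd2 and their kin are uncertain.

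**Figure D3:**
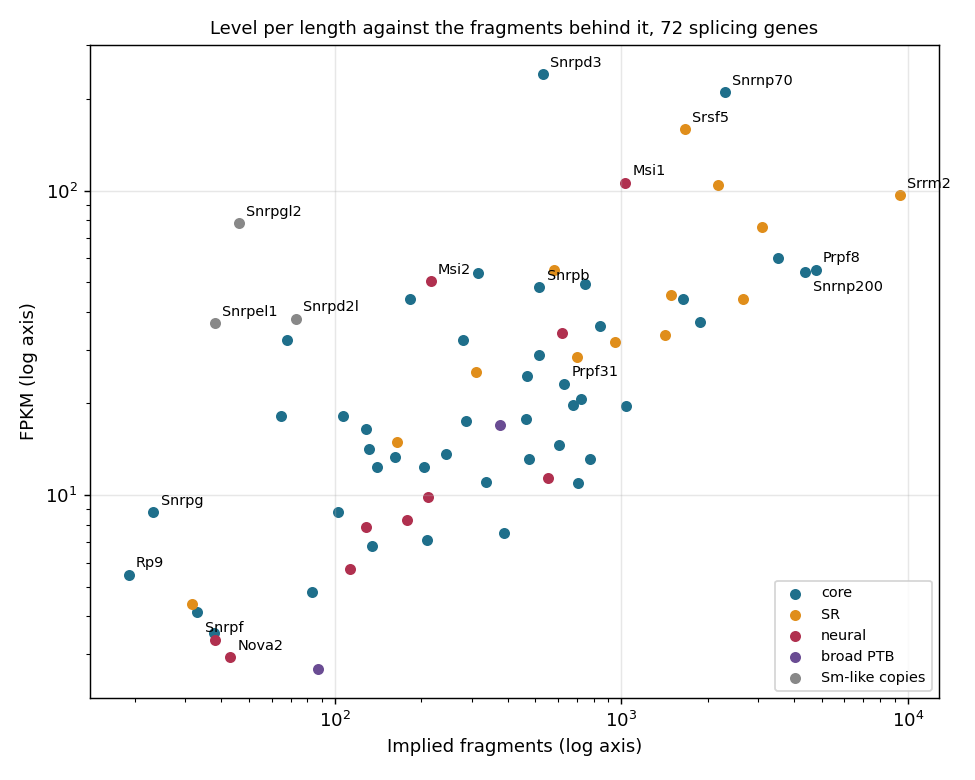
FPKM against the number of fragments implied by the deposited interval (both log axes), 1 point per splicing gene above 0, coloured by role. Snrpd3 lies above Snrpb at nearly the same number of fragments (533 and 517), and the 3 Sm copies above 0 have 38 to 73 fragments at 36.7 to 78.2 FPKM.

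Branch point recognition falls to the U2 particle, whose 10 genes had a median of 18.9 FPKM. Of these, 9 (90%) were at 10 FPKM or more, against 28.9% of all symbols. Sf3b1, which clamps the branch point helix, was the highest at 60.3 FPKM (58.3 to 62.3). Sf3b5 was at 53.5 FPKM (47.5 to 59.6) and Sf3b2 at 44.2 FPKM (42.03 to 46.4), and Sf3b1 was 1.36 times Sf3b2 per length (1.29 to 1.45) and 2.15 times by fragments (2.03 to 2.28). Sf3a3 was at 24.7 FPKM (22.4 to 26.97), Sf3b3 at 19.6 FPKM (18.4 to 20.8), Snrpa1 at 18.1 FPKM (13.6 to 22.6) and Sf3b4 at 17.5 FPKM (15.4 to 19.5). Snrpb2 at 14.2 FPKM (11.7 to 16.7), Sf3a1 at 13.1 FPKM (12.2 to 14.03) and Sf3a2 at 4.80 FPKM (3.75 to 5.85) were the lowest. Sf3a1, Sf3a2 and Sf3a3 form 1 complex, and Sf3a2 stood below the intervals of both partners.

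The U2AF proteins read the end of the intron. U2af2, the large subunit that binds the polypyrimidine tract, was at 49.4 FPKM (45.7 to 53.0) and U2af1, the small subunit that reads the AG, at 32.3 FPKM (28.4 to 36.1), a ratio of 1.53 per length (1.33 to 1.75) and of 2.67 by fragments (2.32 to 3.06). U2af1l4, a paralog of the small subunit, was at 18.2 FPKM (14.7 to 21.8). Its locus overlaps that of Psenen at 42.3 FPKM (35.8 to 48.7), so its level is uncertain.

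The minor spliceosome, which removes a rare class of introns, was represented by 3 proteins of its U11/U12 particle. Snrnp25 was at 32.3 FPKM (24.5 to 40.2), Snrnp48 at 13.3 FPKM (11.2 to 15.4) and Snrnp35 at 12.3 FPKM (10.2 to 14.4). Per length, all 3 exceeded Snrpa and Snrpc of the U1 particle, whose role they share in the other spliceosome, and lay below Snrnp70. The deposited intervals of Snrnp35 and Snrpa (7.05 to 10.5) overlap, and no ratio was computed for these pairs. By implied fragments Snrnp25, with 68, stood below Snrpa with 102, while Snrnp48 with 162 and Snrnp35 with 140 stood above it.

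The 8 other PRP factors all reached 10 FPKM, against 28.9% of all symbols. They spanned a 3.36-fold range, beside 7.72-fold for the 8 tri-snRNP genes. Prpf4b, a kinase of the tri-snRNP, was at 36.9 FPKM (35.2 to 38.6) and Prpf19, the ubiquitin ligase that names the activating complex, at 35.8 FPKM (33.4 to 38.3). Prpf39, a U1-associated protein, was at 28.9 FPKM (26.4 to 31.5) and Prpf38b at 19.7 FPKM (18.2 to 21.2). Prpf38a was at 13.6 FPKM (11.9 to 15.4), and Prpf38b was 1.45 times Prpf38a per length (1.25 to 1.67) and 2.77 times by fragments (2.40 to 3.21). Prpf40b, a U1-associated protein, was at 13.1 FPKM (11.9 to 14.3). Prpf18, a factor of the second catalytic step, was the lowest at 10.996 FPKM (10.2 to 11.8). In rn5 the Prpf40b row lies on chromosome X, and RefSeq's newer assembly GRCr8 places the gene on another chromosome; 70 of the 73 genes were on the same chromosome in both and 2 had no match.

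**Figure D4:**
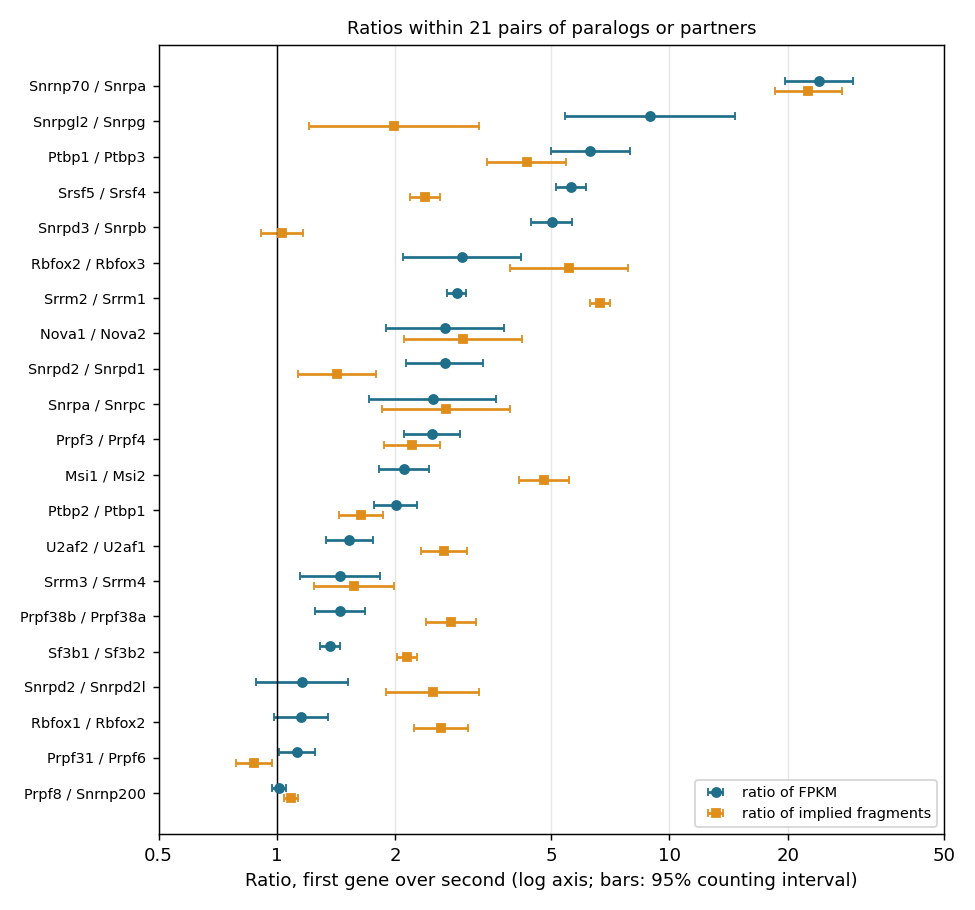
Ratios within 21 pairs of paralogs or partners, chosen after the values were seen (log axis; circles are ratios of FPKM, squares ratios of implied fragments, bars 95% counting intervals, line at 1). For 18 pairs the interval of the FPKM ratio lies off 1 and for 3 it holds 1; Snrnp70 over Snrpa is the largest at 24.0, and Prpf31 over Prpf6 lies on opposite sides of 1 by the 2 measures.

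Spliceosome genes outside the name rule stood at similar levels. Of 56 listed, 54 had a row. All 54 were at 1 FPKM or above, against 61% of all symbols, and 45 (83.3%) at 10 FPKM or above, against 28.9%. Their median was 22.3 FPKM. At the top stood Rbm39, an SR-related coactivator, at 174 FPKM (168 to 180), Nhp2l1, the protein that binds U4 RNA beside Prpf31, at 107 FPKM (93.5 to 120.04), and Ddx39b, a helicase that helps U2 to bind, at 90.0 FPKM (85.5 to 94.4). The lowest were Lsm2 at 4.40 FPKM (2.77 to 6.03) and Usp39 at 4.98 FPKM (4.07 to 5.88). Eftud2, the GTPase that sits with Prpf8 and Snrnp200 in the U5 particle, was at 20.1 FPKM (18.7 to 21.6), below the intervals of both.

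The hnRNP proteins, which often oppose SR proteins, were higher still. All 21 of 23 with a row reached 10 FPKM, against 28.9% of all symbols. Of these, 5 (23.8%) reached 100 FPKM, against 1.79% of all symbols, and the median was 61.3 FPKM. Raly at 314 FPKM (303 to 325), Hnrnpc at 148 FPKM (141 to 154) and Hnrnph1 at 132 FPKM (126 to 137) led the list, and Hnrnpr at 15.5 FPKM (14.02 to 16.9) and Hnrnpll at 19.4 FPKM (17.4 to 21.4) were the lowest.

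Other neural or tissue regulators covered a wide range. Of 22 with a row, 16 reached 1 FPKM (72.7%, against 61% of all symbols) and 11 reached 10 FPKM (50%, against 28.9%). Their median was 11.5 FPKM. Tra2b at 62.3 FPKM (59.0 to 65.7), Khdrbs3 at 57.8 FPKM (54.1 to 61.5) and Khdrbs1 at 49.7 FPKM (47.1 to 52.3) were the highest. The neuronal regulators Celf4 at 37.8 FPKM and Elavl3 at 19.8 FPKM were the highest listed of their families. The other Celf genes ran from 4.03 FPKM (Celf6) to 26.8 FPKM (Celf2). Elavl4 stood at 7.79 FPKM and Elavl2 at 4.59 FPKM. The 6 genes below 1 FPKM were Esrp1 and Mbnl3, both listed at 0, Esrp2 at 0.0785 FPKM, Rbm20 at 0.292 FPKM, Rbm38 at 0.388 FPKM and Rbm24 at 0.558 FPKM. Esrp1 and Esrp2 are regulators of epithelial exons, and Rbm20 and Rbm24 of muscle exons.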

How the data were processed

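RNA of rat neural retina was sequenced in 6 samples. The authors deposited FPKM values with a lower and an upper bound per gene, in the format of Cufflinks per the file headers. Version 2.0.8 of Cufflinks and build rn5 come from the submitters' processing notes. Libraries were made with an Ion Torrent total RNA kit, per the labels' protocols. Neither the aligner nor the annotation release is named, and the level of the interval is not given in the sources used here. A gene has a single value with no sample name, so no contrast between groups was run.

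With Python 3.11.15, numpy 2.4.6 and pandas 2.3.3, FPKM were summed over rows with the same symbol, ignoring case; each splicing gene had 1 row, all with status OK. The gene's fragment number was implied from the FPKM and its upper bound, assuming 2 standard errors and counting error alone. Isoforms or shared reads widen an interval and lower this number. It ran from 19 to 9408 (median 336), the depth behind the values. Among 26 genes with up to 200 implied fragments, 18 were within 0.02 of a whole number. Ratios have 95% counting intervals from both numbers, covering counting error only. The calculation was tested on simulated data built with the same 2 standard errors and counting error alone. That test could not show whether the deposited bounds meet these assumptions. Table starts were raised by 1 to count from 1. Promoters are RefSeq's, build GRCr8, with the first listed start per symbol.

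The genes and lists were chosen with earlier results of these data known, and the pairs and motifs after the values were seen. The value of 1 gene is not reported here, though counts and medians hold it. The text otherwise names all disease factors, neural regulators and members of classes of up to 12 genes, and of outside lists the 3 highest and 2 lowest. The named Celf and Elavl genes, Eftud2, Snurf and the genes below 1 FPKM were named after their values were seen.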

Additional observations from a re-analysis of the deposited data

How the results depend on the processing

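The table has no replicates, so no library could be left out, and the fits with other pseudocounts were not run. No paired analysis was possible because the single column is tied to no sample. The count of 72 genes at 1 FPKM or more was 72 with the highest row per symbol or status OK only. Each splicing gene had 1 row, with status OK, so neither setting could change a count or median of these genes. The count was 71 with exact case, 69 without the Sm copies and 67 without loci that overlap another row above 0 FPKM. With the minimum itself changed it was 72 at 0.5 FPKM, 72 at 2 FPKM and 65 at 5 FPKM. The share of all symbols at these changed minimums was not computed, so the counts have no background beside them. In 102 cases the recomputed median moved by no more than the deposited error of the gene nearest the median. That is the error of 1 gene and not an interval of the median. The 102 cases include 18 with the highest row per symbol and 18 with status OK only. Most of the 102 could not change, because the setting left out no gene of the group in question. Exact case and the limit to genes at 1 FPKM or more each left out 1 gene. The other 4 medians moved. Without the Sm copies the median of all the splicing genes was 18.2 FPKM. Without loci that overlap another row above 0 FPKM it was 38.8 FPKM for SR, 40.8 FPKM for U2AF and 33.6 FPKM for the SR-related genes. The SR and SR-related medians moved because Srrm2 was left out, for an overlapping row of 79 bases with 1 implied fragment. The SR-related value is thus that of Srrm1 alone, and the U2AF value that of U2af1 and U2af2. The settings without Sm copies and without overlapping loci were both added after the data were seen. The splicing genes' share of 0.742% became 0.762% with the highest row per symbol and 0.985% by implied fragments. By implied fragments 15 of 21 ratios moved: Msi1 to Msi2 4.79, Ptbp2 to Ptbp1 1.64, Ptbp1 to Ptbp3 4.33, Rbfox1 to Rbfox2 2.62, Rbfox2 to Rbfox3 5.55, Srrm2 to Srrm1 6.65, Prpf8 to Snrnp200 1.09, Prpf38b to Prpf38a 2.77, U2af2 to U2af1 2.67, Snrpd3 to Snrpb 1.03, Snrpd2 to Snrpd1 1.42, Snrpd2 to Snrpd2l 2.49, Snrpgl2 to Snrpg 1.99, Sf3b1 to Sf3b2 2.15 and Srsf5 to Srsf4 2.39. The ratio of Prpf31 to Prpf6 reversed, to 0.875. Implied fragments are not divided by length, which by construction moves these ratios. For Prpf8 to Snrnp200, Rbfox1 to Rbfox2 and Snrpd2 to Snrpd2l the interval held 1 per length and excludes it by fragments, and for Snrpd3 to Snrpb the reverse. Genes with few fragments (Rp9 19, Snrpg 23) limit the depth.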

Other observations

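Levels of some splicing genes that lie within 1 Mb of each other or little more are given here as values (build rn5); how often other genes of the table do so was not computed. On chromosome 12, Srrm4, Msi1 and Srsf9 lie within 1.30 Mb (47542290 to 48839338), at 5.71, 106 and 14.9 FPKM. Msi2 and Srsf1 lie 332 kb apart on chromosome 10 at 50.4 and 44.1 FPKM. Nova2 and Snrpd2 lie 197 kb apart on chromosome 1, at 2.93 and 44.1 FPKM. Prpf3 and Sf3b4 on chromosome 2, 337 kb apart, were at 17.7 and 17.5 FPKM. The levels of neighbours were in some pairs alike and in others far apart, and no relation was tested.

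Among the 26 splicing genes with up to 200 implied fragments, 8 did not have a whole number: Srsf12, Snrpgl2, Ptbp3, Snrpd1, Snrpg, Snrpc, Snrpa1 and U2af1l4. Snrpg had 23.2 and Snrpgl2 46.2. The source of the fractions was not tested. Across the 72 genes above 0, FPKM and the span of the locus had a Spearman rho of -0.26, given as a description, since the genes share 1 table and its depth.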
